A study of Mus musculus with 9 samples.

Results

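The mouse genome encodes the collagens as separate α chain genes, and 44 of the 27179 genes in the count table carry a collagen chain symbol, that is, Col followed by a type number, the letter a and a chain number. All 44 were kept, and each was placed in 1 class: 8 fibrillar, 7 cartilage, 9 basement membrane, 6 fibril-associated (FACIT), 6 beaded filament, 4 transmembrane, and 4 short chain or other collagens. Poly(A) RNA was sequenced from whole mandibles, teeth included, of C57BL/6 mice at 6 months of age. Wild type (WT) mice gave 5 libraries and mice titled FcgRIIB-KO, here labelled FcgRIIB-/-, gave 4, with 1 library per replicate. The study asked which genes differ in the mandible of this lupus model, in which deletion of an inhibitory IgG receptor leads to systemic autoimmunity.

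Collagens are trimers of α chains wound into a triple helix. Fibrillar collagens assemble into the fibrils of bone, dentin, ligament and skin, FACITs sit on the surface of those fibrils, and type IV collagen forms the sheet of basement membranes. In a mandible with teeth, osteoblasts, odontoblasts, fibroblasts of the periodontal ligament and gingiva, and chondrocytes of the condyle each make a different mix of these chains.

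Library totals ranged from 21453880 to 28991631 counts. Values are given in CPM (read counts scaled to a common library size after TMM normalization), and gene-wise tests are edgeR quasi-likelihood tests over 16329 genes with Benjamini-Hochberg adjustment. Fcgr2b, the gene named as deleted, had 20.9, 38.3, 17.0, 23.1 and 20.7 CPM in WT replicates 1 to 5 and 26.5, 26.0, 26.6 and 32.1 CPM in labelled FcgRIIB-/- replicates 1 to 4 (log2 fold change 0.21 ± 0.20 (SE), adjusted p = 0.442). It was not lower in the libraries labelled FcgRIIB-/-, and the groups overlapped, so the groups are named by their labels and every direction below rests on those labels. Markers of osteoblasts, odontoblasts, ameloblasts, fibroblasts, muscle and marrow were all detected, and no list had a marker absent from all 9 libraries. Over all tested genes 19.3% were called lower and 14.0% higher in the libraries labelled FcgRIIB-/-. All 10 myeloid and all 7 erythroid markers in the table were lower there (erythroid sum 972 to 1144 CPM in WT and 57.9 to 245 CPM in the libraries labelled FcgRIIB-/-), whereas 4 of 6 ameloblast and 5 of 9 skeletal muscle markers were higher, and of 3 tested adipocyte markers 1 was higher and 1 lower. WT replicate 5 had the highest summed fibroblast, keratinocyte and myeloid markers and the lowest summed ameloblast and odontoblast markers of the WT group. Values without it are given for several of the genes in which it stands far from the other WT mice or decides a call. Among the markers, the calls of Tnmd (adjusted p = 0.0742), Ibsp (adjusted p = 0.0793) and Actn3 (adjusted p = 0.0533) were lost without it. In bulk tissue, fewer cells of a type and less RNA per cell cannot be told apart. The p-values set the group difference against the spread between these mice.

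Collagen transcripts took 6.97, 9.18, 7.68, 6.97 and 7.21% of all counts in WT replicates 1 to 5 and 6.09, 6.16, 5.63 and 5.85% in labelled FcgRIIB-/- replicates 1 to 4. Every labelled FcgRIIB-/- library lay below every WT library. The means were 7.60 ± 0.927% (SD, n = 5) and 5.93 ± 0.241% (SD, n = 4), and no test was run on this sum over the members. Fibrillar chains made up 89.2% of collagen counts in WT and 89.7% in the libraries labelled FcgRIIB-/-. FACIT chains went from 3.60% to 1.92% of collagen counts, whereas cartilage chains went from 2.35% to 3.004% and basement membrane chains from 1.497% to 1.90%. Most counts of the cartilage class came from the type XI chains Col11a1 and Col11a2. Their WT means were 766 and 782 CPM, against 114 CPM for Col2a1. As a percent of all counts, the means of the cartilage chains (0.1791% and 0.1783%) and of the basement membrane chains (0.1132% and 0.1127%) differed by less than the SD of either group. Without the 20 most highly counted other genes in the denominator, the means were 8.46% and 7.09%.

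**Figure D1:**
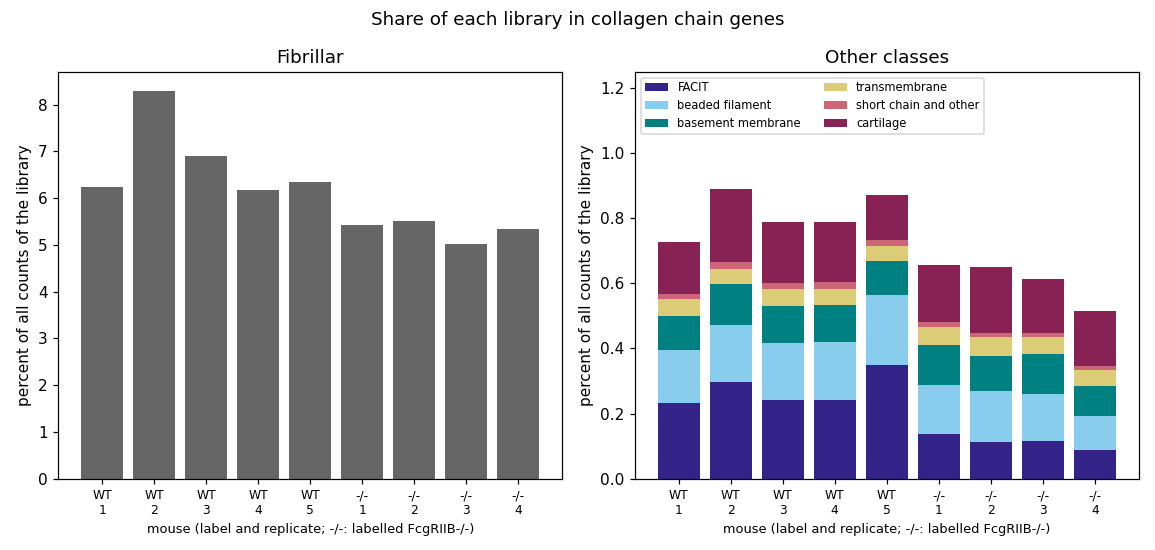
Percent of all counts of each library that fell in collagen chain genes, for the fibrillar class (left) and the other 6 classes stacked (right, on its own smaller scale), in 5 WT and 4 labelled FcgRIIB-/- mice. The FACIT band spans 0.233 to 0.348% of counts in WT and 0.0869 to 0.138% in the libraries labelled FcgRIIB-/-, whereas the cartilage and basement membrane bands overlap between the groups.

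Of the 44 chain genes, 43 passed the count filter and were tested. Expression of 14 was decreased and of 6 increased in the libraries labelled FcgRIIB-/-, and 23 did not pass the test. For comparison, 19.3% of all tested genes were called lower and 14.0% higher. The ranges of the groups did not overlap for 13 lower and 3 higher chains, against 17.5% and 12.1% of all tested genes in the respective direction. The 43 chains had a median log2 fold change of -0.24, and all tested genes one of 0.0055. A decrease of at least 1 log2 unit was seen for only Col12a1, Col9a1 and Col28a1 among the called chains, and no called chain increased that much. The member not tested was Col19a1, a FACIT chain with 1 to 9 reads per library. Exons of 13 chain genes overlapped exons of another annotated gene, and none by more than 10% of its length.

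**Figure D2:**
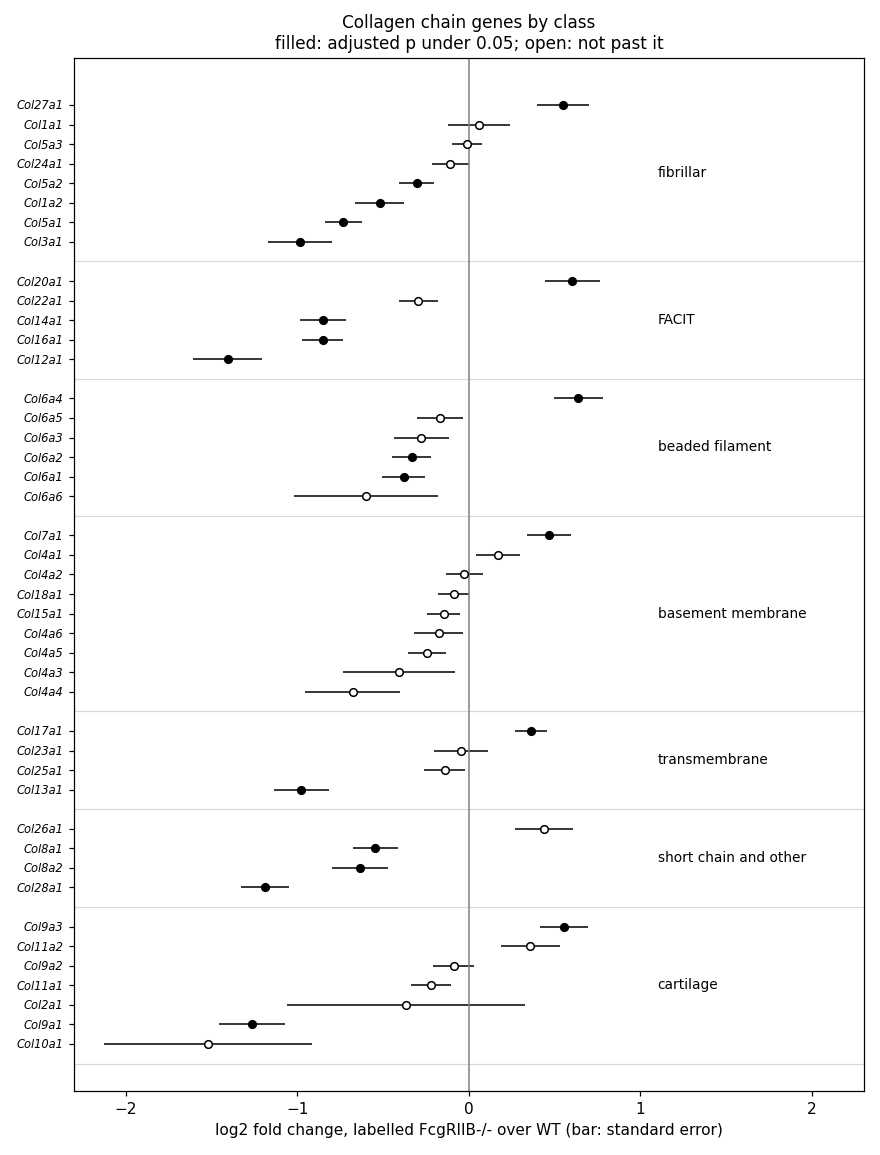
Log2 fold change (labelled FcgRIIB-/- over WT, x axis, with standard error) of the 43 tested collagen chain genes, ordered within their class, with filled circles for chains past an adjusted p of 0.05. The FACIT class, drawn here without the type IX chains, has the lowest median, -0.85. In the basement membrane class 8 of 9 chains are open circles.

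The fibrillar class held the most abundant transcripts. Among all tested genes, Col1a1 ranked 1, Col1a2 ranked 2 and Col3a1 ranked 7 by mean expression. Per kb of exon, Col1a1 had 5270.2 CPM in WT and 5496 CPM in the libraries labelled FcgRIIB-/-, Col1a2 had 3265 and 2277, and Col3a1 had 2430.3 and 1231. Of 8 fibrillar chains, 4 were decreased, 1 was increased and 3 did not pass the test, where 19.3% of all tested genes were called lower and 14.0% higher.

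Type I collagen, the main protein of bone and dentin, is usually a trimer with more α1 than α2 chains. Col1a1 (gene 12842, chr11:94936224-94953042 in GRCm38.p6, the build of all gene positions given here), the α1(I) chain, had 29165, 40528, 33132, 28796 and 24640.2 CPM in WT replicates and 31109, 33900.3, 27222 and 38128 CPM in labelled FcgRIIB-/- replicates. The groups overlapped, with the highest value in WT replicate 2, and the difference did not pass the test (log2 fold change 0.06 ± 0.18 (SE), adjusted p = 0.823). Col1a2 (gene 12843, chr6:4505618-4541543), the α2(I) chain, had 15942, 22669, 18056, 15686 and 17932 CPM in WT and 12994, 12520.0, 12797 and 12049 CPM in the libraries labelled FcgRIIB-/-. All labelled FcgRIIB-/- values lay below all WT values, and expression decreased 1.43-fold (log2 fold change -0.52 ± 0.14 (SE), adjusted p = 0.0191). The call was lost without WT replicate 3 (adjusted p = 0.0526) or without labelled FcgRIIB-/- replicate 2 (adjusted p = 0.0503).

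Since both chains enter the same trimer, the ratio of their RNA read counts was compared within each mouse. It does not give the chain ratio of the protein. The ratio of Col1a1 to Col1a2 read counts was 1.83, 1.79, 1.83, 1.84 and 1.37 in WT and 2.39, 2.71, 2.13 and 3.16 in the libraries labelled FcgRIIB-/-. WT replicate 5 stood below the other 4 WT mice, and the groups did not overlap. On the log2 scale the mean ratio rose by 0.58, from 0.78 ± 0.183 (SD, n = 5) to 1.36 ± 0.245 (SD, n = 4), with an exact permutation p of 0.00794, the smallest that 126 splits can give, and 0.0159 after adjustment over 8 chain pairs. Without WT replicate 5 the difference was 0.50.

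RNA of type III collagen, a homotrimer of soft connective tissue that shares fibrils with type I, was also lower. Col3a1 (gene 12825, chr1:45311538-45349706) had 12336, 13356, 12219, 11593 and 18106 CPM in WT and 8168, 6481, 7607 and 5132 CPM in the libraries labelled FcgRIIB-/-. WT replicate 5 was the highest of all mice, and the groups did not overlap. Expression decreased 1.97-fold (log2 fold change -0.98 ± 0.19 (SE), adjusted p = 0.00344), and without WT replicate 5 the log2 fold change was -0.83 (adjusted p = 0.00427). The ratio of Col3a1 to Col1a1 counts was 0.423, 0.330, 0.369, 0.403 and 0.735 in WT and 0.263, 0.191, 0.279 and 0.135 in the libraries labelled FcgRIIB-/-. This log2 ratio fell by 1.05 (exact permutation p = 0.00794, adjusted p = 0.0159), and by 0.86 without WT replicate 5.

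Type V collagen is a minor fibril component that helps start fibril assembly and limits fibril width. Col5a1 (gene 12831, chr2:27886381-28039510), its α1 chain, had 1029.9, 1159, 1116, 986 and 1314 CPM in WT and 741, 684, 679.7 and 596 CPM in the libraries labelled FcgRIIB-/-, a 1.66-fold decrease with no overlap (log2 fold change -0.73 ± 0.11 (SE), adjusted p = 0.00117). Col5a2 (gene 12832, chr1:45374331-45503282), the α2 chain, had 1642, 2065, 1812, 1805 and 1979 CPM in WT and 1543, 1517, 1602 and 1362 CPM in the libraries labelled FcgRIIB-/-. Those ranges did not overlap either, but the decrease was smaller (log2 fold change -0.30 ± 0.10 (SE), adjusted p = 0.0388) and its call was lost in 11 of 17 alternatives, with adjusted p up to 0.0978. The ratio of Col5a1 to Col5a2 counts lay between 0.546 and 0.664 in WT and between 0.424 and 0.480 in the libraries labelled FcgRIIB-/-, and its log2 value fell by 0.43 (exact permutation p = 0.00794, adjusted p = 0.0159). The third type V chain, Col5a3, was at 98.0 and 97.3 CPM (log2 fold change -0.01, adjusted p = 0.948).

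Col27a1 and Col24a1 encode the evolutionarily distinct fibrillar chains, the former known from cartilage and the latter from bone. Col27a1 had 341, 349.9, 439, 309.8 and 269 CPM in WT and 412, 482, 481 and 624 CPM in the libraries labelled FcgRIIB-/-, and was the fibrillar chain that increased (log2 fold change 0.55 ± 0.15 (SE), adjusted p = 0.019). Its groups overlapped at WT replicate 3, and the call was lost without labelled FcgRIIB-/- replicate 4 (adjusted p = 0.0544). Col24a1, highest in WT replicate 5, ranged from 62.4 to 84.0 CPM in WT and from 53.0 to 72.5 CPM in the libraries labelled FcgRIIB-/- and did not pass the test (log2 fold change -0.11, adjusted p = 0.472, and -0.0023 without that mouse).

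**Figure D3:**
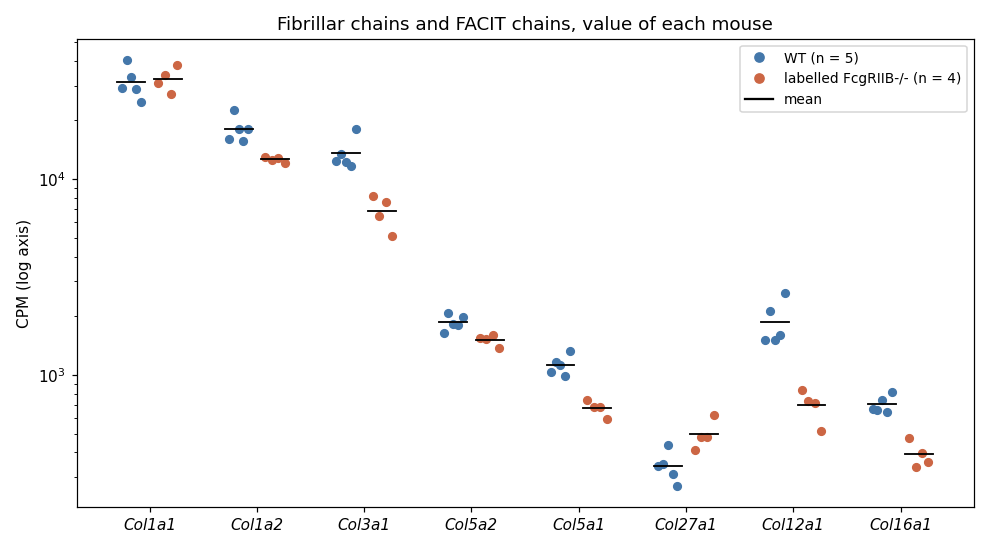
CPM (log axis) of 6 fibrillar chains and the FACIT chains Col12a1 and Col16a1 in each of 5 WT and 4 labelled FcgRIIB-/- mice, with the group mean as a bar. For Col1a1 the groups overlap, whereas for Col1a2, Col3a1, Col5a1, Col5a2, Col12a1 and Col16a1 every labelled FcgRIIB-/- point lies below every WT point.

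To place the decreased chains on the genome, a stretch upstream of the listed transcription start is shown for 4 of them whose start RefSeq gives. It lies within the 250 bases before that start (GRCm38.p6, plus strand, 5′ to 3′). Bases in GENCODE exons of the gene or past its RefSeq gene start were left out. These were 127 bases for Col1a2, 44 for Col5a1 and 23 for Col16a1, mostly those nearest the start. The Col3a1 window is whole, so the stretches do not cover the same region. Capitals mark GGGCGG (a GC box), CCAAT or TATAAA on either strand, and no 2 matches overlap. These are Col1a2 at chr6:4505370-4505492, Col3a1 at chr1:45311288-45311537, Col5a1 at chr2:27886175-27886380 and Col16a1 at chr4:130047590-130047816.
Col1a2: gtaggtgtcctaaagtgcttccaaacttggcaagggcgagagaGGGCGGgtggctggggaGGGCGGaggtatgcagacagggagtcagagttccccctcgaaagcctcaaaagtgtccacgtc
Col3a1: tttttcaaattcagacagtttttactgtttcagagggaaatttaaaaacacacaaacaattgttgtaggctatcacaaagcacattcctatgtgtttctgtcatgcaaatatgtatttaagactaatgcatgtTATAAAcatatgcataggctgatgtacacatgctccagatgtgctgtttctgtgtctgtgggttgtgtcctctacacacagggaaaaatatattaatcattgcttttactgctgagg
Col5a1: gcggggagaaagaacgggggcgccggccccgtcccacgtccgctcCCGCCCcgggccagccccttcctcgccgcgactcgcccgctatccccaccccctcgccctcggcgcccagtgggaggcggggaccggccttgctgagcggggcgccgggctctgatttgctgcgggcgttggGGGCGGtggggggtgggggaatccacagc
Col16a1: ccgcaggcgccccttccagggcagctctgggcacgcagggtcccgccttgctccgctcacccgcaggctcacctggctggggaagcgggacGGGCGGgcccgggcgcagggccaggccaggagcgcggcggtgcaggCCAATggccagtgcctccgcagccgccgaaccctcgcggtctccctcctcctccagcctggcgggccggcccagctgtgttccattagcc
The Col3a1 stretch was AT-rich, with 35.2% G and C and 1 TATAAA match, whereas Col1a2 had 59.3%, Col5a1 77.7% and Col16a1 75.8% G and C, and each of these 3 held at least 1 GC box. The median over all promoter windows, each taken whole with the bases next to the start, was 52.4%. Among 38 windows of 250 bases upstream of the starts of 35 collagen genes, GGGCGG on either strand was found in 22 (57.9%), against 32.7% of 32851 windows of all genes. CCAAT was found in 13 (34.2%, against 33.8%) and TATAAA in 5 (13.2%, against 12.4%). These are matches of letters and were not tested against expression.

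FACIT chains had the lowest median log2 fold change of the 7 classes, -0.85, and 3 of the 5 tested were lower, where 19.3% of all tested genes were. Type IX collagen is also a FACIT, but its 3 chains were placed in the cartilage class (log2 fold changes -1.27, -0.09 and 0.56). The ranking holds only for the classes as drawn here, with the short chain class next at -0.59. Col12a1 (gene 12816, chr9:79598987-79721141), a fibril surface collagen of periodontal ligament, tendon and bone, had 1496, 2105, 1499, 1587 and 2606 CPM in WT and 836, 735, 717 and 518 CPM in the libraries labelled FcgRIIB-/-. The lowest WT mouse was well above the highest labelled FcgRIIB-/- mouse, and expression decreased 2.65-fold (log2 fold change -1.41 ± 0.20 (SE), adjusted p = 0.00104). Without WT replicate 5, its highest value, the log2 fold change was -1.23. Per kb of exon, Col12a1 moved from rank 6 among the 44 chains in WT (153 CPM per kb) to rank 14 in the libraries labelled FcgRIIB-/- (57.7 CPM per kb).

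Col16a1 (gene 107581, chr4:130047817-130099277), which associates with fibrils in skin and cartilage, had 665, 662, 739, 647 and 815 CPM in WT and 472, 338, 397 and 357 CPM in the libraries labelled FcgRIIB-/-. It decreased 1.80-fold (log2 fold change -0.85 ± 0.12 (SE), adjusted p = 0.000854). Col14a1, a related FACIT of dense connective tissue, had 33.7, 39.5, 40.7, 36.4 and 44.7 CPM in WT and 27.9, 21.2, 17.4 and 19.8 CPM in the libraries labelled FcgRIIB-/- (log2 fold change -0.85 ± 0.13 (SE), adjusted p = 0.00152). For both chains the groups did not overlap. Col20a1, a minor FACIT chain, spanned 3.77 to 5.05 CPM in WT and 5.01 to 7.90 CPM in the libraries labelled FcgRIIB-/-. It increased (log2 fold change 0.60 ± 0.16 (SE), adjusted p = 0.0168), with overlap between the groups and with the call lost without labelled FcgRIIB-/- replicate 2 (adjusted p = 0.0517). Col22a1, known from tissue junctions such as that of muscle and tendon, had 58.9, 59.6, 55.5, 58.7 and 68.9 CPM in WT and 60.8, 51.5, 41.8 and 42.6 CPM in the libraries labelled FcgRIIB-/- and did not pass the test (log2 fold change -0.29 ± 0.11 (SE), adjusted p = 0.0686). Without labelled FcgRIIB-/- replicate 1 it did (log2 fold change -0.41, adjusted p = 0.014).

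Markers of fibroblasts and the periodontal ligament moved with these chains. Of the 8 genes of that list, 5 were decreased, where 19.3% of all tested genes were called lower. The 5 included Postn (log2 fold change -1.31, adjusted p = 0.00159), a matrix protein of the ligament, and Aspn (-1.10, adjusted p = 0.00488), a small leucine-rich proteoglycan. Without WT replicate 5 the values of Postn and Aspn were -1.09 and -0.85, both past the test. The call of Tnmd, also among the 5, was lost there (adjusted p = 0.0742). The summed level of the list was 10902 to 18703 CPM in WT and 5719.6 to 7477 CPM in the libraries labelled FcgRIIB-/-, and none of the 8 was at 0. Scx, Lum and Fmod did not pass the test. Summed osteoblast markers, by contrast, overlapped at 2532 to 3485 CPM and 2676 to 3411 CPM. Of these 9 markers 1 was higher and 2 were lower, where 14.0% and 19.3% of all tested genes were. The odontoblast markers Dspp, Dmp1 and Phex did not pass the edgeR test (0 of 3, and 0 also at an unadjusted p under 0.05 or with DESeq2), with sums of 3355 to 7569 CPM and 6032 to 8283 CPM. The part of any of these in the collagen values was not tested.

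Beaded filament collagen, type VI, forms microfibrils around cells. Col6a1 had 632, 688, 657, 657 and 863 CPM in WT and 584, 601, 529.6 and 434 CPM in the libraries labelled FcgRIIB-/-, and Col6a2 had 539.9, 616, 582, 588 and 732 and 532, 519, 489.8 and 399.6 CPM. Both were lower without overlap (log2 fold change -0.38 ± 0.13 (SE), adjusted p = 0.0386, for Col6a1, and log2 fold change -0.33 ± 0.11 (SE), adjusted p = 0.0453, for Col6a2). These calls were close to the limit, that of Col6a1 being lost in 10 and that of Col6a2 in 14 of 17 alternatives. Without WT replicate 5, the highest WT mouse for both, the log2 fold changes were -0.27 (adjusted p = 0.0893) and -0.24 (adjusted p = 0.112). Col6a3, the third chain of the main type VI trimer, had 379, 376, 429, 411 and 586 CPM in WT and 368, 411, 396 and 266 CPM in the libraries labelled FcgRIIB-/- and did not pass the test (log2 fold change -0.28 ± 0.16 (SE), adjusted p = 0.208). Without WT replicate 5, its highest value, the log2 fold change was -0.12.

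Col6a4, Col6a5 and Col6a6 lie next to each other on chromosome 9 on the same strand and encode chains that can take the place of α3(VI). Col6a4 had 8.51, 8.87, 11.4, 11.3 and 7.30 CPM in WT and 15.6, 13.3, 14.2 and 16.0 CPM in the libraries labelled FcgRIIB-/- and increased 1.56-fold without overlap (log2 fold change 0.64 ± 0.14 (SE), adjusted p = 0.00683). Its exons overlap those of 2 antisense genes over 3.92% of their length. Col6a5 (-0.17, adjusted p = 0.354) and Col6a6 (-0.60, adjusted p = 0.295) did not pass the test. The ratio of Col6a1 to Col6a2 counts stayed within 1.12 to 1.18 in WT and 1.08 to 1.16 in the libraries labelled FcgRIIB-/- (exact permutation p = 0.135, adjusted p = 0.216).

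Basement membrane collagens were the class with the fewest calls. Of 9 chains 1 was higher and 0 were lower, where 14.0% and 19.3% of all tested genes were. Col4a1 and Col4a2, the chains of the common type IV trimer of vessels and epithelia, are divergent neighbours on chromosome 8 whose gene bodies overlap by 85 bases. Col4a1 had 377, 501, 412, 434 and 383 CPM in WT and 513, 451, 559.8 and 373 CPM in the libraries labelled FcgRIIB-/- (log2 fold change 0.17 ± 0.13 (SE), adjusted p = 0.332). Col4a2 had 289.9, 367, 331, 341 and 296 CPM in WT and 351, 319, 344 and 262 CPM in the libraries labelled FcgRIIB-/- (log2 fold change -0.03 ± 0.11 (SE), adjusted p = 0.869). Neither passed the test and for both the groups overlapped. The ratio of the pair within a mouse was 1.30, 1.37, 1.24, 1.27 and 1.29 in WT and 1.46, 1.42, 1.63 and 1.42 in the libraries labelled FcgRIIB-/-, with no overlap. Its log2 value rose by 0.19 (exact permutation p = 0.00794, adjusted p = 0.0159).

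Col4a3 and Col4a4, which form the trimer of kidney and lung membranes together with Col4a5, were near 1 CPM and did not pass the test (log2 fold change -0.41, adjusted p = 0.359, and -0.68, adjusted p = 0.0826, respectively). Nor did Col4a5 (-0.24, adjusted p = 0.113) and Col4a6 (-0.18, adjusted p = 0.366), a divergent pair on the X chromosome, although Col4a5 did without WT replicate 5 (-0.29, adjusted p = 0.0329). Their pair ratios did not pass either, with adjusted p = 0.548 for both Col4a3 to Col4a4 and Col4a5 to Col4a6. Col15a1 (-0.15, adjusted p = 0.267) and Col18a1 (-0.09, adjusted p = 0.483), the multiplexins whose ends give restin and endostatin, respectively, did not pass the test either. Col18a1 had 122, 149, 117, 112 and 140.0 CPM in WT and 122, 113, 127 and 119.7 CPM in the libraries labelled FcgRIIB-/-. Of 8 endothelial markers 0 passed the edgeR test, 2 had an unadjusted p under 0.05 and 1 passed with DESeq2, and their sum was 601 to 661 CPM in WT and 622 to 715 CPM in the libraries labelled FcgRIIB-/-.

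Col7a1 was the called chain of the class. It forms the anchoring fibrils under stratified epithelium, and had 90.1, 61.4, 88.1, 74.5 and 75.0 CPM in WT and 115, 99.5, 88.5 and 127 CPM in the libraries labelled FcgRIIB-/-. Labelled FcgRIIB-/- replicate 3 overlapped the WT range, and expression increased 1.38-fold (log2 fold change 0.47 ± 0.13 (SE), adjusted p = 0.0194). The call was lost without labelled FcgRIIB-/- replicate 1 (adjusted p = 0.0513) or 4 (adjusted p = 0.0565).

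Among the transmembrane collagens, Col17a1, the hemidesmosome collagen of basal epithelial cells, increased. It had 328, 260.3, 341, 302 and 333 CPM in WT and 403, 443, 378 and 386 CPM in the libraries labelled FcgRIIB-/-, without overlap (log2 fold change 0.36 ± 0.09 (SE), adjusted p = 0.015). Of the 8 keratinocyte markers, Krt5, a keratin of basal epithelium, was higher (log2 fold change 0.39, adjusted p = 0.0356), while its basal partner Krt14 (0.24, adjusted p = 0.32), the basal transcription factor Trp63 (0.31, adjusted p = 0.0599) and the desmosomal cadherin Dsg3 (-0.61, adjusted p = 0.0557) did not pass the test. In contrast, Krt1, Krt10, Krt4 and Krt13, keratins of the upper layers of stratified epithelium, were lower, with log2 fold changes from -6.44 to -4.80. Summed keratinocyte markers were 5497 to 19238 CPM in WT and 4485 to 5681 CPM in the libraries labelled FcgRIIB-/-, and summed ameloblast markers were 9412 to 25562 CPM and 28886 to 50038 CPM. No marker of either list was at 0 in all libraries, and their part in the values of Col7a1 and Col17a1 was not tested.

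Col13a1, a membrane collagen of the neuromuscular junction that is also made in bone and other connective tissue cells, decreased. It had 35.1, 44.0, 41.1, 33.4 and 47.5 CPM in WT and 27.8, 18.8, 18.0 and 17.0 CPM in the libraries labelled FcgRIIB-/-. Labelled FcgRIIB-/- replicate 1 stood above the other 3 of its group but below every WT mouse, and the decrease was 1.97-fold (log2 fold change -0.98 ± 0.16 (SE), adjusted p = 0.00174). Summed skeletal muscle markers were 6707 to 15576 CPM in WT and 16322 to 28439 CPM in the libraries labelled FcgRIIB-/-. Col23a1 had 101, 103, 115, 106 and 62.9 CPM in WT and 106, 84.7, 82.6 and 105 CPM in the libraries labelled FcgRIIB-/- (log2 fold change -0.04 ± 0.16 (SE), adjusted p = 0.851), WT replicate 5 being the lowest of all mice, and without it the log2 fold change was -0.15. Neither Col23a1 nor Col25a1 (-0.14, adjusted p = 0.383), a collagen of neurons, passed the test.

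Of the short chain and other collagens, 3 of 4 decreased, where 19.3% of all tested genes were called lower. Col28a1, a chain with von Willebrand factor A domains known from peripheral nerve, had 26.7, 26.3, 24.8, 28.1 and 31.5 CPM in WT and 12.9, 8.64, 14.7 and 12.0 CPM in the libraries labelled FcgRIIB-/-. Its groups were far apart and it had the smallest adjusted p of all chains (log2 fold change -1.19 ± 0.14 (SE), adjusted p = 0.000414). Of 7 Schwann cell markers 0 passed the edgeR test, 0 had an unadjusted p under 0.05 and 0 passed with DESeq2, and their sums overlapped, at 427 to 1191 CPM in WT and 731 to 1208 CPM in the libraries labelled FcgRIIB-/-.

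Type VIII collagen, a network-forming short chain collagen of vessel walls and cornea, has an α1 and an α2 chain. Col8a1 had 55.9, 76.4, 60.4, 77.2 and 66.4 CPM in WT and 50.5, 45.3, 52.9 and 35.5 CPM in the libraries labelled FcgRIIB-/- (log2 fold change -0.55 ± 0.13 (SE), adjusted p = 0.0105), without overlap. Col8a2 had 42.5, 50.7, 48.0, 48.7 and 53.9 CPM in WT and 44.5, 31.3, 25.9 and 23.6 CPM in the libraries labelled FcgRIIB-/- (log2 fold change -0.63 ± 0.16 (SE), adjusted p = 0.0144), with labelled FcgRIIB-/- replicate 1 inside the WT range. Col26a1 had 39.2, 45.7, 46.7, 43.7 and 24.4 CPM in WT and 58.9, 52.7, 46.1 and 58.8 CPM in the libraries labelled FcgRIIB-/- and did not pass the test (log2 fold change 0.44 ± 0.17 (SE), adjusted p = 0.0666). With WT replicate 5, its lowest value, left out, it did (0.33, adjusted p = 0.0233), as it did in 3 other alternatives.

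**Figure D4:**
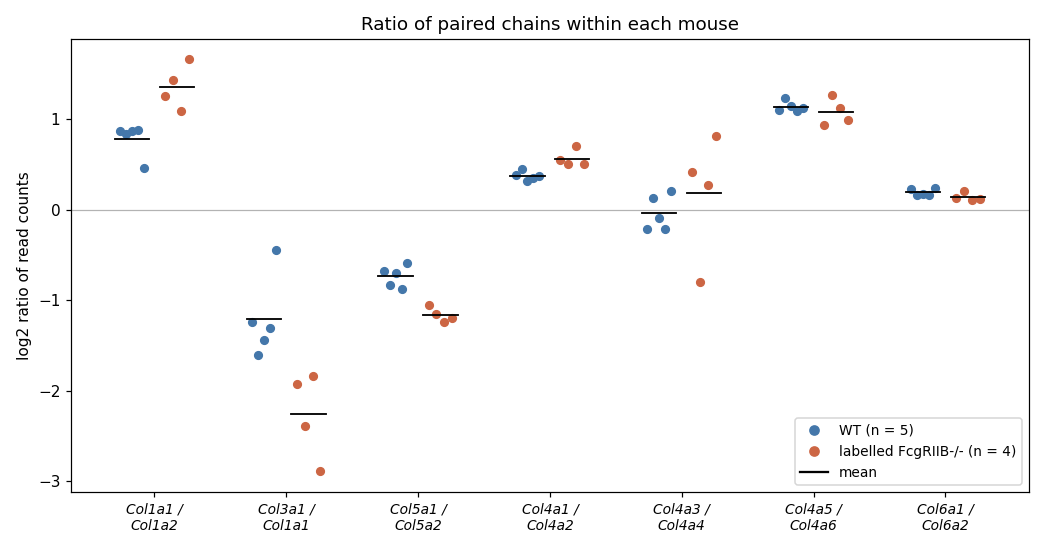
Log2 ratio of read counts of 7 pairs of collagen chains within each of 5 WT and 4 labelled FcgRIIB-/- mice, with the group mean as a bar. The pairs of Col1a1 with Col1a2, Col3a1 with Col1a1, Col5a1 with Col5a2 and Col4a1 with Col4a2 do not overlap between the groups, and the other 3 pairs do.

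Of the 7 cartilage collagens 1 decreased, 1 increased and 5 did not pass the test, where 19.3% of all tested genes were called lower and 14.0% higher. Col2a1, the fibril of hyaline cartilage, varied more between mice of a group than 99.5% of tested genes, with 33.6, 137, 100.4, 146 and 151 CPM in WT and 58.8, 250.0, 23.5 and 20.4 CPM in the libraries labelled FcgRIIB-/-. Labelled FcgRIIB-/- replicate 2 was the highest of all mice while replicates 3 and 4 were the lowest, and the difference did not pass the test (log2 fold change -0.37 ± 0.70 (SE), adjusted p = 0.714). Without labelled FcgRIIB-/- replicate 2 the log2 fold change was -1.72 (adjusted p = 0.0327). Col10a1, a marker of hypertrophic chondrocytes, had 1.41, 3.73, 2.16, 6.75 and 4.02 CPM in WT and 0.280, 2.59, 1.65 and 0.557 CPM in the libraries labelled FcgRIIB-/-. It also varied more than 99.1% of tested genes and did not pass the test (log2 fold change -1.52 ± 0.61 (SE), adjusted p = 0.0762). It passed without labelled FcgRIIB-/- replicate 2 (log2 fold change -2.13, adjusted p = 0.036) and with DESeq2 (adjusted p = 0.0281). The ratio of Col2a1 to Col10a1 overlapped between groups (exact permutation p = 0.349, adjusted p = 0.465).

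Type IX collagen coats type II fibrils and is built of the chains of Col9a1, Col9a2 and Col9a3. Its genes split. Col9a1 had 6.59, 4.41, 5.55, 6.79 and 5.27 CPM in WT and 2.21, 3.14, 2.25 and 1.93 CPM in the libraries labelled FcgRIIB-/- and decreased 2.40-fold without overlap (log2 fold change -1.27 ± 0.19 (SE), adjusted p = 0.00128). Col9a3 had 28.5, 24.7, 32.9, 28.8 and 18.1 CPM in WT and 39.4, 40.8, 37.3 and 39.1 CPM in the libraries labelled FcgRIIB-/- and increased 1.47-fold without overlap (log2 fold change 0.56 ± 0.14 (SE), adjusted p = 0.0125). Col9a2 had means of 48.6 CPM in WT and 45.7 CPM in the libraries labelled FcgRIIB-/- and did not pass the test (log2 fold change -0.09, adjusted p = 0.599). Exons of Col9a3 overlap those of the antisense gene Tcfl5 over 7.68% of their length. Per kb of exon, Col9a1 was the least abundant of the 3 genes in WT, at 1.39 CPM per kb against 16.6 for Col9a2 and 8.73 for Col9a3.

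Type XI collagen is the inner core of cartilage fibrils, and its chains are also made in bone and tooth. Col11a1 had 683, 967, 749.6, 747 and 682 CPM in WT and 649.8, 719, 657 and 604 CPM in the libraries labelled FcgRIIB-/-, with WT replicate 2 above the rest (log2 fold change -0.22 ± 0.12 (SE), adjusted p = 0.165). Col11a2 had 734, 1019, 861, 789 and 509 CPM in WT and 983, 998, 899 and 1132 CPM in the libraries labelled FcgRIIB-/- (log2 fold change 0.36 ± 0.17 (SE), adjusted p = 0.128), WT replicate 5 being lowest (0.26 without it). Neither passed the test, but Col11a2 did without WT replicate 2 (0.49, adjusted p = 0.0339). Per kb of exon both exceeded Col2a1 by a wide margin in WT, with 97.9 CPM for Col11a1, 124 for Col11a2 and 22.3 for Col2a1. Summed chondrocyte markers were 130.5 to 218 CPM in WT and 154 to 378 CPM in the libraries labelled FcgRIIB-/-. Of the 8 chondrocyte markers tested, Cnmd was lower (-0.96, adjusted p = 0.0199), Cytl1 was higher (1.06, adjusted p = 0.00931), and Acan, Sox9, Comp, Hapln1, Snorc and Chad did not pass the test. Matn1 and Matn3 did not pass the count filter. The part of the cartilage content of each mandible in these values was not tested.

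**Figure D5:**
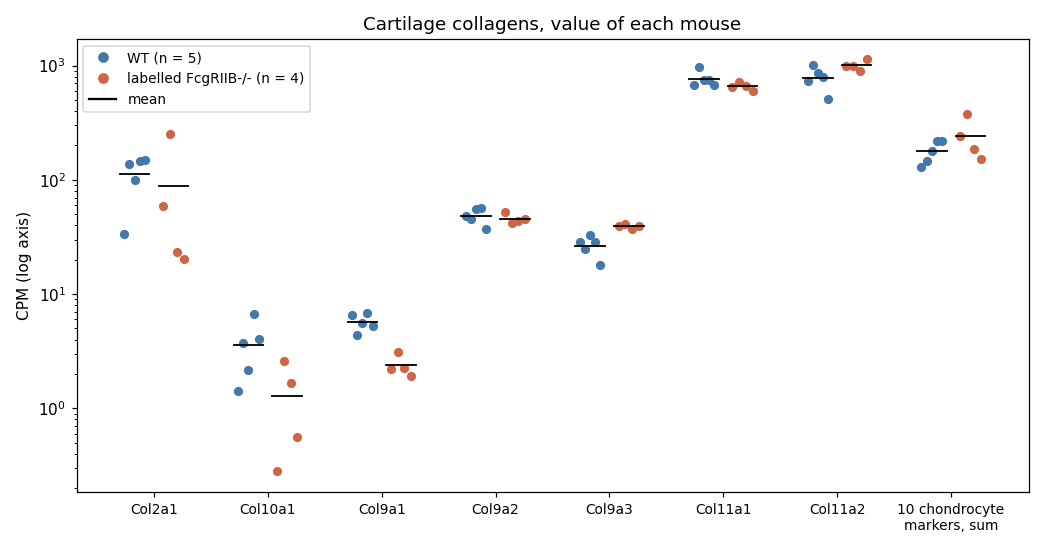
CPM (log axis) of the 7 cartilage collagens and of the summed 10 chondrocyte markers in each of 5 WT and 4 labelled FcgRIIB-/- mice, with the group mean as a bar. Col9a1 is lower and Col9a3 higher in the libraries labelled FcgRIIB-/- without overlap, whereas Col2a1 spans 20.4 to 250.0 CPM within that group alone.

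Collagen chains are hydroxylated, glycosylated and folded in the endoplasmic reticulum, trimmed by propeptidases, crosslinked by lysyl oxidases and bound by cell surface receptors. Of 46 genes for these steps 45 were tested, of which 12 decreased, 3 increased and 30 did not pass the test, with a median log2 fold change of -0.03. Over all tested genes 19.3% were lower and 14.0% higher. Among 23 genes for folding and modification, 3 increased, P4ha2 (log2 fold change 0.57 ± 0.07 (SE), adjusted p = 0.000615), a prolyl 4-hydroxylase subunit, and the lysyl hydroxylases Plod2 (log2 fold change 0.59 ± 0.10 (SE), adjusted p = 0.00235) and Plod1 (log2 fold change 0.28 ± 0.06 (SE), adjusted p = 0.00714). P4ha3 (-0.44, adjusted p = 0.00692), Sec24d (-0.30, adjusted p = 0.0302), a coat protein of procollagen export, and the galactosyltransferase Colgalt1 (-0.27, adjusted p = 0.00563) decreased. The groups overlapped for Sec24d, and its call was lost without WT replicate 5 (-0.24, adjusted p = 0.0827). Plod2 had 316, 313, 324, 351 and 301 CPM in WT and 398, 533, 544 and 455 CPM in the libraries labelled FcgRIIB-/-, without overlap. The collagen chaperone Serpinh1 (log2 fold change 0.32 ± 0.12 (SE), adjusted p = 0.0632) and the main prolyl 4-hydroxylase subunit P4ha1 (log2 fold change 0.39 ± 0.14 (SE), adjusted p = 0.0531) did not pass the test. Without WT replicate 5 P4ha1 passed (0.47, adjusted p = 0.0357).

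Of 12 tested genes for propeptide removal and crosslinking, 3 decreased, a share near the 19.3% of all tested genes. Adamts2, which removes the aminopropeptide of types I to III, had 180.1, 219, 195, 187 and 215 CPM in WT and 131, 115, 101 and 123 CPM in the libraries labelled FcgRIIB-/-, without overlap (log2 fold change -0.76 ± 0.09 (SE), adjusted p = 0.000516). The crosslinking enzyme Loxl2 had 226, 246, 240.1, 224 and 381 CPM in WT and 147, 136, 128 and 128 CPM in the libraries labelled FcgRIIB-/-, also without overlap (log2 fold change -0.97 ± 0.15 (SE), adjusted p = 0.00163). WT replicate 5 was far above the other WT mice, and without it the log2 fold change was -0.78. Loxl1 also decreased (-0.34, adjusted p = 0.0176). Lox (0.06, adjusted p = 0.845), the founding lysyl oxidase, and Bmp1 (0.23, adjusted p = 0.17), which removes the carboxypropeptide, did not pass the test.

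Of 10 receptor and uptake genes, 6 decreased and 4 did not pass the test, where 19.3% of all tested genes were called lower. Ddr2, a receptor tyrosine kinase for fibrillar collagens in bone and connective tissue, had 217, 247, 249, 245 and 217 CPM in WT and 163, 175, 173 and 159 CPM in the libraries labelled FcgRIIB-/- (log2 fold change -0.49 ± 0.07 (SE), adjusted p = 0.00127). Itga11, the α subunit of a fibroblast integrin for type I collagen, spanned 149 to 293 CPM in WT and 88.5 to 112 CPM in the libraries labelled FcgRIIB-/- (log2 fold change -0.83 ± 0.20 (SE), adjusted p = 0.00975). WT replicate 5 was again the highest, and without it the log2 fold change was -0.57 (adjusted p = 0.00119). Gp6, the collagen receptor of platelets, spanned 1.08 to 2.81 CPM in WT and 0.0462 to 0.709 CPM in the libraries labelled FcgRIIB-/- (log2 fold change -3.00 ± 0.59 (SE), adjusted p = 0.00397), and Lair1 (-0.64, adjusted p = 0.0405), of leukocytes, was lower too. The sum of myeloid markers was 1131 to 3406 CPM in WT and 139.6 to 420.3 CPM in the libraries labelled FcgRIIB-/-. No list of platelet markers was used, and the part of blood cells in the values of both genes was not tested. Itgb1 (-0.43, adjusted p = 0.0336) and Itga10 (-0.26, adjusted p = 0.0284) also decreased. Without WT replicate 5 the calls of Itgb1 (adjusted p = 0.0717), Itga10 (adjusted p = 0.0696) and Lair1 (adjusted p = 0.0882) were lost. Itga1, Itga2, Ddr1 and the uptake receptor Mrc2 did not pass the test.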

How the data were processed

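Poly(A) RNA of 9 mandibles was made into directional libraries. Per the labels and the study's methods, the authors used Trim Galore for trimming, HISAT 02.1.0 for mapping to mm10 and featureCounts for counting, and deposited the raw counts per gene, which are not normalized. They tested genotype with DESeq2. The annotation, strand setting and treatment of multi-mapping reads are not given in the sources used here. The table held 1 column of per-sample values that matched no labelled sample, and it was not used. Groups and replicate numbers came from sample titles.

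From the counts, edgeR 4.0.16 in R 4.3.3 was run with filterByExpr (minimum count 10), TMM scaling, the quasi-likelihood test of genotype and Benjamini-Hochberg adjustment at 0.05 over 16329 genes, with no fold limit. SE is the absolute log2 fold change over the root of F. CPM used the TMM-scaled library size. Count ratios of 8 chain pairs (0.5 added to each count before the log) were tested by exact two-sided permutation over 126 splits. DESeq2 1.42.0, other scalings, filters, a replicate block and leaving out each mouse were alternatives. One of them, library sizes over all genes before TMM, was chosen after seeing the data. The scripts were tested on simulated counts.

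Members are all genes with a collagen chain symbol. Members, classes, pathway and marker lists were chosen with earlier results of these data known. Values in every library are given for the 3 most expressed and the 3 most changed called members (average log2 CPM of at least 0) of each class and for both chains of each ratio that passed, and of each pathway list the 3 most changed called genes and Serpinh1, P4ha1, Lox, Bmp1 and Ddr2 are named. Others were chosen after their values were seen. Positions and promoters came from RefSeq (GRCm38.p6), matched by gene identifier for 44 and 35 genes, and exon lengths from GENCODE M21, matched by symbol. The depth of 21453880 to 28991631 counts leaves chains near 1 CPM resting on few reads, so their values are the least precise.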

Additional observations from a re-analysis of the deposited data

Results flagged for a closer look

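Among 104 groups of mice examined, 9 held 1 mouse apart from the rest of its group by Dixon's test, where chance would give about 1 in 20. Of these, 6 concerned WT replicate 5. It was the highest WT mouse for Col3a1 (18106 CPM, the others 11593 to 13356), Col6a1 (863 CPM, the others 632 to 688), Col6a3 (586 CPM, the others 376 to 429) and Col24a1 (84.0 CPM, the others 62.4 to 68.0). It was the lowest for Col23a1 (62.9 CPM, the others 101 to 115) and for the log2 ratio of Col1a1 to Col1a2 (0.46, the others 0.84 to 0.88). WT replicate 2 stood above the other WT mice for Col11a1 (967 CPM, the others 682 to 750). In the libraries labelled FcgRIIB-/-, replicate 1 was high for Col13a1 (27.8 CPM, the others 17.0 to 18.8) and replicate 2 was high for Col2a1 (250.0 CPM, the others 20.4 to 58.8).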

How the results depend on the processing

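Of 727 comparisons of a tested chain with an alternative, 654 kept direction and side of the threshold, 42 lost and 11 gained the call, and 20 changed sign, all of the latter for Col1a1, Col4a2, Col5a3 and Col23a1, none of which was called. Between 10 and 15 chains were called lower and between 4 and 8 higher in all alternatives but a limit of 1 log2 unit, which left 3 lower and 0 higher. With total counts alone, 1309 genes were higher and 3781 lower against 2289 and 3144, and the chains were 15 lower and 6 higher. DESeq2 called 15 lower and 7 higher. Pathway genes called higher numbered 5 with DESeq2 size factors, upper quartile scaling or library sizes over all genes, 6 with DESeq2, 2 with total counts alone, and 3 to 6 when 1 mouse was left out (6 without labelled FcgRIIB-/- replicate 4). Those called lower numbered 8 to 13 against 12, with 8 under the block and without WT replicate 2, WT replicate 4 or labelled FcgRIIB-/- replicate 1.

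Col1a1 changed sign with total counts (-0.023) and with the block (-0.011), and spanned -0.023 to 0.19 when 1 mouse was left out, against -0.145 to 0.036 for Col23a1, -0.075 to 0.058 for Col4a2 and -0.054 to 0.068 for Col5a3. Col5a3 was also above 0 with DESeq2 size factors (0.0063), upper quartile (0.0079), library sizes over all genes (0.0101) and DESeq2 (0.0065). The cause was not tested.

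Leaving out 1 mouse, the log2 ratio differences were 0.48 to 0.67 (Col1a1 to Col1a2), -1.20 to -0.84 (Col3a1 to Col1a1), -0.46 to -0.39 (Col5a1 to Col5a2) and 0.145 to 0.21 (Col4a1 to Col4a2). Without a WT mouse the smallest adjusted exact p was 0.0571, so these could not pass there. Without labelled FcgRIIB-/- replicate 2, Col4a3 to Col4a4 (0.54, range 0.0027 to 0.54) and Col6a1 to Col6a2 (-0.070, range -0.070 to -0.036) passed (exact permutation, adjusted p = 0.0476). Without the 20 highest other genes the collagen share of the libraries labelled FcgRIIB-/- was 7.09%.

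Replicate numbers are shared by the groups, and the sources used here do not say whether same-numbered mice were processed together. Deviations of same-numbered mice correlated at 0.097, 0.028, -0.114 and -0.074, and only replicate 1 correlated best with its own number. With a replicate block, 11 chains were lower and 5 higher, and the ratio differences were 0.50, -0.86, -0.39 and 0.19, in the order above, with an exact p of 0.125, the smallest 4 pairs can give.

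Chains near 1 CPM (Col4a3, Col4a4, Col6a6) rest on few reads, and with Col10a1 they gave no value under a minimum of 10 counts in every library. The treatment of overlapping and multi-mapping reads was not given, and Fcgr2b did not follow the labels.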
